A study of Mus musculus with 8 samples.

Results

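App, which encodes the amyloid precursor protein, its family member Aplp2 and the genes of the enzymes that cut them (Bace1, Psen2, Ncstn, Aph1a, Psenen, Adam10 and Adam17) were followed through the immune cells of the mouse brain. These 9 genes were taken by symbol from the 32285 genes listed, and each symbol matched 1 gene. The rule uses no expression value, though earlier results of these data were known when the set was chosen. Across the immune cell types App ranged more widely than any other member, 82.8-fold from macrophages to group 2 innate lymphoid cells (ILC2). Hardly any App RNA was counted in ILC2, so the fold is rough. The genotype and treatment differences of App were small beside that range.

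The amyloid precursor protein is a membrane protein that is first cut outside the membrane and then within it. If the first cut is made by Bace1, the beta-secretase, the second cut by gamma-secretase releases amyloid-beta, the peptide of Alzheimer's disease plaques. If the first cut is made by Adam10 or Adam17, the alpha-secretases, amyloid-beta is not formed. Gamma-secretase is a complex of a presenilin (such as Psen2), which carries the active site, with nicastrin (Ncstn), an Aph1 subunit and Psenen, and it also cuts Notch receptors.

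Cells from the brains of C57BL/6J mice at 16 weeks of age, by the labels, were compared between wild-type (WT) mice and App NL-G-F mice. App NL-G-F mice carry a humanized amyloid-beta stretch with the Swedish, Arctic and Iberian mutations in the mouse App gene itself, so App keeps its own promoter and its RNA counts do not tell the mutant from the WT allele. Mice of each genotype drank water alone (control), drank 2% dextran sulfate sodium (DSS) for 1 week (acute colitis), went through 3 cycles of 5 days on 2% DSS and 5 days on water (chronic colitis), or were sensitized to ovalbumin with alum and then fed it (food allergy). This gave 8 libraries of cells sorted for CD45.2 after perfusion, 1 per genotype and treatment, with the cells of a library marked by 3 or 4 hashtag antibodies. Which mouse carried which hashtag is not given in the sources used here, so a library was the unit of every comparison, and 4 WT were set against 4 App NL-G-F libraries, or 2 treated against 2 control libraries.

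Cells numbered 50114 in all, 4876 to 7199 per library, with 25620876 to 54618574 unique molecular identifiers (UMIs, 1 per captured RNA molecule) per library and a median of 2777 to 4130 UMIs per cell. Of these cells 80.8% passed a gate on marker genes for 1 cell type, and 15 types had at least 20 cells in every library. Of 48594 barcodes, 3.06% occurred in more than 1 library. Cells with several hashtags were kept, and they made up 25.65% of macrophages and 4.10% to 21.75% of the other 14 tested types. Hashtag groups fell into 14 with low and 16 with high immediate-early gene RNA in T cells (582 to 1437 against 2987 to 6008 counts scaled to a total of 1000000, CPM). Among cells with exactly 1 hashtag, high groups held 53.8%, 95.8%, 92.4% and 88.7% in WT (control, acute colitis, chronic colitis, food allergy) and 48.2%, 41.5%, 57.5% and 48.2% in App NL-G-F libraries, so this property moved with genotype in the treated libraries. Genotype labels could not be checked, because the knock-in changes the App sequence and not a gene that these counts would lose.

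Levels below are CPM, the UMIs of a gene as parts per 1000000 of all UMIs of that cell type in a library, given as the mean ± SD over 8 libraries. They are set between cell types within a gene and never between genes.

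App (ENSMUSG00000022892, chr16:84949685-85173766, minus strand, GRCm38) was a gene of the myeloid cells. Macrophages averaged 374.9 ± 48.0 CPM (n = 8), from 278.2 in WT chronic colitis to 437.7 in WT acute colitis with a median of 373.3. Monocytes followed with 298.7 ± 31.3 CPM, neutrophils with 246.7 ± 78.9, conventional type 2 dendritic cells (cDC2) with 192.9 ± 35.9 and neutrophil precursors with 179.7 ± 27.5. Type 1 dendritic cells (cDC1) reached 96.4 ± 9.47 CPM. Plasmacytoid dendritic cells (pDC) had 30.1 ± 26.6 CPM, with an SD nearly as large as the mean. All lymphoid types lay below 12 CPM, from 11.7 ± 4.73 in plasma cells and 11.5 ± 4.97 in natural killer (NK) cells down to 4.53 ± 3.75 in ILC2, where 31 UMIs were counted in 2234 cells.

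Macrophages exceeded each of the other 14 types in App on the exact two-sided paired permutation test over 8 libraries (sign flips of log2(CPM + 1), Benjamini-Hochberg adjusted over 126 tests of 9 members). The top type had been picked from the same libraries. The smallest p this design allows is 0.00781. Neighbors in the order were closer. Macrophages lay above monocytes in 7 of 8 libraries, with an exact permutation p of 0.0234. This became 0.0266 when adjusted over the 126 tests of top types and 0.118 over the 126 tests of neighbors, which is a separate family, so the call depends on the family. Over all members 29 of 126 neighboring pairs had an unadjusted exact p under 0.05 and 0 passed after adjustment, where the lowest adjusted p was 0.0547. With cell types from clusters, 20 of 117 neighboring pairs passed, 2 of them for App and 4 for Psen2, so how far the fine order is resolved depends on how cells were typed.

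At least 1 App UMI was found in 84.8% of monocytes, 79.5% of neutrophil precursors, 73.4% of cDC2, 68.7% of neutrophils and 68.4% of macrophages, against 1.07% of ILC2 (exact Clopper-Pearson 95% interval 0.690% to 1.59%, counting error only) and 1.40% of B cells. These shares follow the depth of a cell. Thinned to 1000 UMIs per cell, macrophages came first with 33.7%, followed by monocytes with 25.8%, neutrophils with 21.4%, cDC2 with 18.3% and precursors with 16.3%, and ILC2 had 0.308%. Neutrophils held 31.4% of the 36453 App UMIs (5341 cells, with a median of 7240 UMIs per cell) and their precursors 22.0% (1978 cells, 21490 UMIs). Monocytes held 16.1% (1972 cells, 8677 UMIs) and macrophages 8.65% (1899 cells, 3437 UMIs).

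Empty droplets, which hold free RNA, had an App level of 82.0 CPM over the 8 libraries. The lymphoid types lay far under that level. The level gives the makeup of free RNA and not how much of it a cell held. Whether the few App UMIs in lymphocytes were free RNA was therefore not tested, and they are not read as expression. The mean of each myeloid type other than pDC lay above the level of empty droplets. For cDC1 this did not hold in every library, since its App level was below that of the library's own empty droplets in WT control (94.3 against 111.9 CPM), WT food allergy (109.8 against 166.7) and App NL-G-F acute colitis (100.3 against 102.8).

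**Figure D1:**
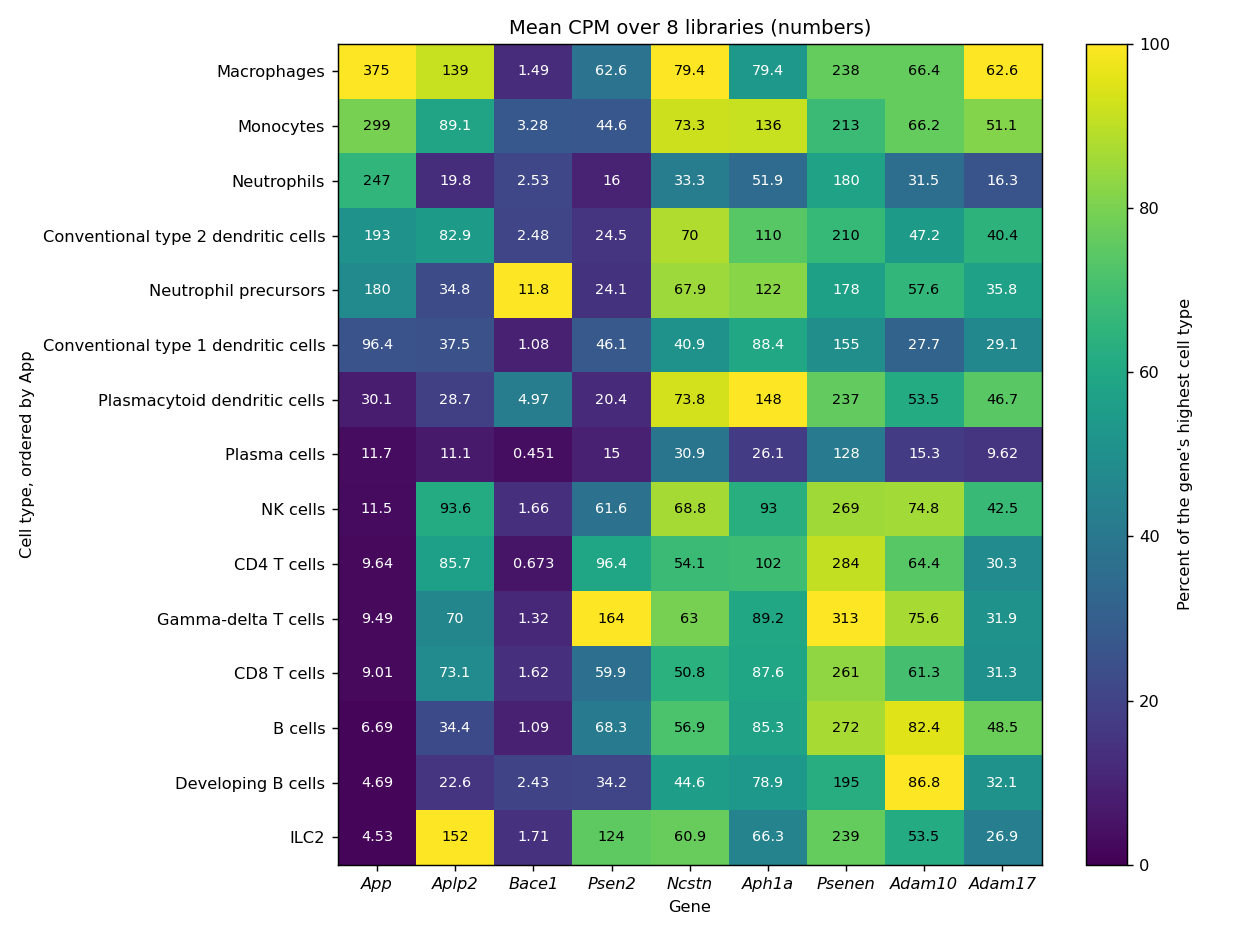
Mean CPM over 8 libraries of the 9 members (columns) in the 15 cell types (rows), with color as the percent of the highest type of each gene. App stands highest in macrophages, monocytes and neutrophils (374.9, 298.7 and 246.7 CPM), Psen2 in gamma-delta T cells (164.1 CPM), and plasma cells are the lowest type for 8 of the 9 genes.

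Cells of rarer types are described from pooled counts only. Fibroblasts, which are not immune cells, had 912 CPM of App with a UMI in 95.1% of 243 cells, and an unnamed cluster led by Ttr had 1112 CPM in 71 cells. Both exceeded the macrophages' value. Microglia, the resident macrophages of the brain parenchyma, numbered 98 by the gate and had 233 CPM of App. They formed no cluster of their own, and 7 of them passed a stricter gate (margin 0.25), so the identity of most is uncertain. Endothelial cells (12 cells) had 611 CPM, migratory dendritic cells 135 CPM and mast cells 29.0 CPM.

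**Figure D2:**
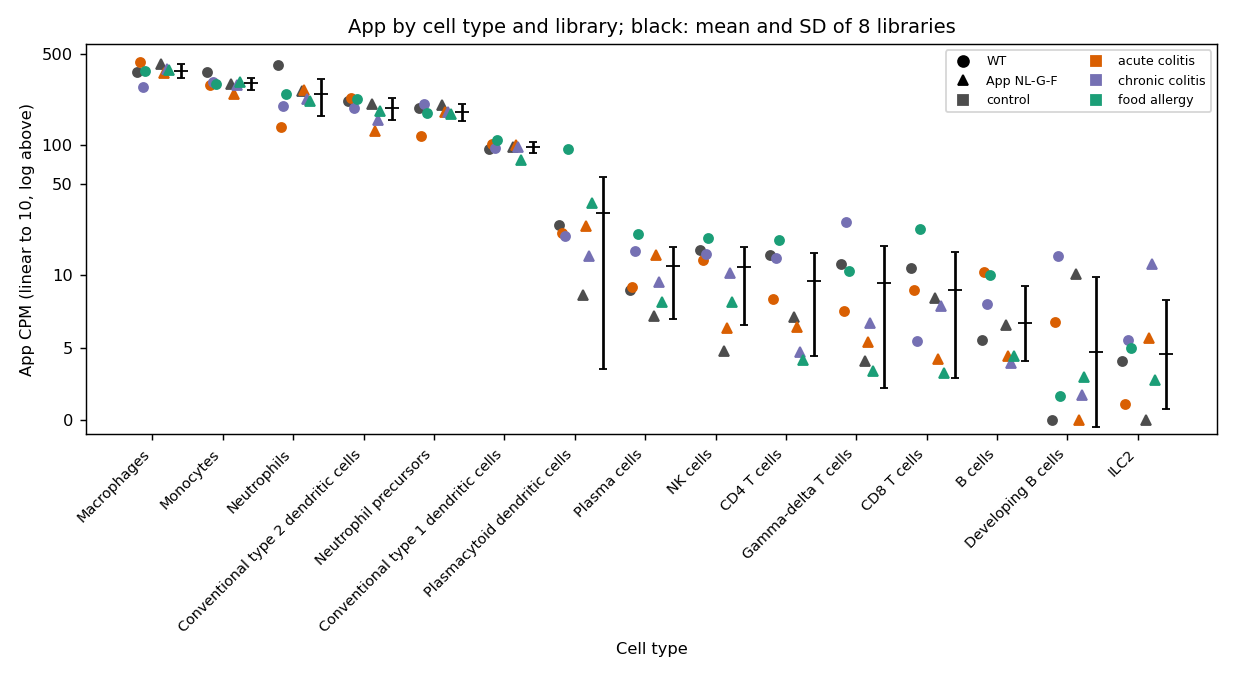
App in CPM (y axis, linear to 10 and logarithmic above) by cell type, 1 point per library (circles WT, triangles App NL-G-F, colored by treatment), with the mean and SD of 8 libraries in black. The macrophage libraries lie between 278.2 and 437.7 CPM in both genotypes, whereas the ILC2 libraries lie between 0 and 12.27.

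The genes whose level followed that of App most closely over the 15 types, of 11063 genes with at least 10 CPM in a type, were Gm36161 (Pearson r = 0.975), Gm21188 (r = 0.975) and Ifitm3 (r = 0.973), an interferon-induced antiviral membrane protein. All 3 were highest in monocytes. The 15 types share libraries, and no p is given.

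App and Psen2 were high in different cell types, with a correlation of -0.44 between their levels over the 15 types, and their promoters are shown for that reason. The sequences come from RefSeq (GRCm38.p6, minus strand) and cover bases before each annotated start, with GC boxes (GGGCGG) or the PU.1 core (GAGGAA, here read as TTCCTC) in capitals. PU.1 is a transcription factor of myeloid and B cells. For App the window chr16:85173767-85173957 ends where an annotated untranslated region begins, and it holds neither motif. For Psen2 2 starts are annotated, chr1:180256301-180256550 and chr1:180245951-180246200, and both windows lie inside the span of the gene in the GENCODE annotation.

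App: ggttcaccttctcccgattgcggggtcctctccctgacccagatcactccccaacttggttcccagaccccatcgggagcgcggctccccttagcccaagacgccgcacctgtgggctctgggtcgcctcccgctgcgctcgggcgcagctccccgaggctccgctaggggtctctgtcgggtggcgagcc
Psen2 start 1: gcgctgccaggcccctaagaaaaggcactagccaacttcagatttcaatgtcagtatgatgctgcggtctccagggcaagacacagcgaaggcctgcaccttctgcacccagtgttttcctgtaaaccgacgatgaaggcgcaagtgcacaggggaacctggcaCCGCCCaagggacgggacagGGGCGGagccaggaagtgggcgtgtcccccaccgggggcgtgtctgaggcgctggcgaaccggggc
Psen2 start 2: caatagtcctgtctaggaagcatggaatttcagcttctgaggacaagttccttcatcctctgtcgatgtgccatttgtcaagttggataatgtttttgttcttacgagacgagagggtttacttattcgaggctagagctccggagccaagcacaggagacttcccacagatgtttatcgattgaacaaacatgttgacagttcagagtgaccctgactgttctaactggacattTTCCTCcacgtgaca

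The 250 bases before the App start contained 1 GC box, in the stretch that is not printed, and 70.8% G and C. Psen2 start 1 had 2 GC boxes and 62.8% G and C, and start 2 had the PU.1 core at -15 to -10 from the start, an E-box (CACGTG) at -9 to -4 beside it and 44.8% G and C. Counted on both strands in 32851 promoters of that length, 32.7% held a GC box, 23.3% the PU.1 core and 6.02% the E-box. Windows of 8 of the 9 members were searched, and Bace1 was not analysed here. Those of the others held 3 GC boxes in Aplp2, 3 in Adam10 (of which 2 overlap by a base) with an E-box at -64 to -59, 1 in Aph1a, 1 in Adam17, and 0 in Ncstn and Psenen. The AP-1 site TGACTCA, present in 4.46% of promoters, was in none of the windows searched. These are matches of letters and not binding sites.

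Aplp2 (ENSMUSG00000031996, chr9:31149557-31211815, minus strand), the other widely expressed member of the precursor family, had a different order. It was highest in ILC2, where App was lowest, with 152.0 ± 28.7 CPM and a range of 118.8 to 204.6. Macrophages had 139.0 ± 29.1 CPM and were not shown to differ from ILC2 (exact permutation p = 0.336). NK cells (93.6 ± 12.4 CPM), monocytes (89.1 ± 9.57) and CD4 T cells (85.7 ± 12.02) came next, and neutrophils (19.8 ± 6.76) and plasma cells (11.1 ± 2.18) came last. ILC2 passed the test against 13 of the other 14 types. Neutrophils, high in App, were next to last in Aplp2. Pim3 (r = 0.933), a kinase, Atp2b1 (r = 0.913), a calcium pump of the plasma membrane, and Cept1 (r = 0.905), an enzyme of phospholipid synthesis, followed Aplp2 most closely over the 15 types.

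Bace1 (ENSMUSG00000032086, chr9:45838580-45864399, plus strand), the beta-secretase, was the rarest member, with 1127 UMIs in 50114 cells. Of these, 502 (44.5%) lay in neutrophil precursors, where the level was 11.8 ± 1.79 CPM with a range of 9.80 to 15.05 over the 8 libraries. The next types were pDC with 4.97 ± 5.48 CPM, of which WT acute colitis reached 16.77 on 4 UMIs, and monocytes with 3.28 ± 2.42, mature neutrophils had 2.53 ± 1.05, and plasma cells had 0.451 ± 0.434. Precursors exceeded each of the other 14 types on the exact paired permutation test. Empty droplets had 5.40 CPM from 17 UMIs, and of the 15 types the precursors alone had a mean above that. This compares the makeup of free RNA with that of cells. Whether Bace1 UMIs in the other types were free RNA was not tested. A Bace1 UMI was found in 19.7% of precursors, which are deep cells, and in 1.12% after thinning to 1000 UMIs, against 0.212% of neutrophils. Plppr3 (r = 0.926), Kcnk12 (r = 0.869) and Rab38 (r = 0.869), all highest in neutrophil precursors, had the most similar profiles.

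Psen2 (ENSMUSG00000010609, chr1:180227004-180263438, minus strand), a presenilin, was highest in gamma-delta T cells with 164.1 ± 49.1 CPM, from 120.3 in WT food allergy to 271.7 in WT control. ILC2 followed with 123.5 ± 10.4 CPM, CD4 T cells with 96.4 ± 10.2 and B cells with 68.3 ± 10.96. Neutrophils (16.0 ± 1.84 CPM) and plasma cells (14.96 ± 2.61) had the least. Gamma-delta T cells exceeded each of the other 14 types. Mast cells, too rare for a test, had 239 CPM from pooled counts. Tbc1d10a (r = 0.920), Mdfic (r = 0.905) and Taf4b (r = 0.902) had the most similar profiles.

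The remaining gamma-secretase subunits were expressed more evenly. Psenen (ENSMUSG00000036835, chr7:30561863-30563627, minus strand) differed 2.45-fold between its highest type, gamma-delta T cells with 313.0 ± 17.7 CPM, and plasma cells with 127.9 ± 13.8. Ncstn (ENSMUSG00000003458, chr1:172066013-172082795, minus strand) differed 2.57-fold, from 79.4 ± 12.7 CPM in macrophages to 30.9 ± 5.53 in plasma cells. Aph1a (ENSMUSG00000015750, chr3:95893969-95898288, plus strand) differed 5.69-fold, with 148.3 ± 27.9 CPM in pDC, 135.9 ± 11.02 in monocytes and 26.1 ± 2.58 in plasma cells. The other Aph1 subunits were high in other types, Aph1c in cDC1 (61.5 CPM) and Aph1b in neutrophils (25.3 CPM).

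The alpha-secretases also differed from each other. Adam10 (ENSMUSG00000054693, chr9:70678997-70780229, plus strand) was highest in developing B cells with 86.8 ± 18.1 CPM and B cells with 82.4 ± 5.66, and it was the member whose top type was least separated, passing the test against 9 of the other 14 types. Adam17 (ENSMUSG00000052593, chr12:21323509-21373632, minus strand), which also sheds tumor necrosis factor, was highest in macrophages with 62.7 ± 11.7 CPM and monocytes with 51.1 ± 7.97. Plasma cells were lowest in both, with 15.3 ± 3.001 CPM of Adam10 and 9.62 ± 1.93 CPM of Adam17.

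Over the 15 types, Adam17 and Ncstn had the most similar levels among the members (r = 0.878), followed by Adam17 and Aph1a (r = 0.825), Adam10 and Psenen (r = 0.810), Adam17 and Adam10 (r = 0.777), Aph1a and Ncstn (r = 0.774), and Psen2 and Psenen (r = 0.753). App had no such partner, with r between -0.441 (Psen2) and 0.441 (Bace1). These values share libraries, and plasma cells, the lowest type for 8 of 9 members, are 1 of the 15 points behind each.

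The first comparison asked whether App NL-G-F libraries differed from WT libraries in these genes, in a fit of genotype and treatment per cell type (edgeR's quasi-likelihood test, Benjamini-Hochberg adjusted over all genes of a cell type, call at an adjusted p under 0.05). The low-count filter kept App in 13 of 15 types (not in gamma-delta T cells and ILC2), Bace1 in 3 and the other 7 genes in all 15, which left 121 of 135 pairs of a member and a cell type. No pair passed, by edgeR or by the DESeq2 Wald test (0 of 121 each), where over all genes 0.141% of pairs did. At an unadjusted p under 0.05, 1 pair was higher and 7 were lower in App NL-G-F mice, 8 of 121 against 7.23% of pairs over all genes. In 133 pairs with at least 10 UMIs, the libraries of the genotypes did not overlap in 6 lower pairs and 1 higher pair, and over all genes the shares were 3.28% lower and 1.13% higher.

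In macrophages, where App was highest, WT mice had 367.2 CPM (control), 437.7 (acute colitis), 278.2 (chronic colitis), then 370.6 (food allergy), and App NL-G-F mice had 422.9, 358.2, 388.1 and 376.0, listed alike. The groups overlapped, and the log2 difference was 0.09 ± 0.15 (SE), with a 95% interval of -0.22 to 0.39. Monocytes (-0.16 ± 0.13), neutrophils (0.22 ± 0.30), neutrophil precursors (0.16 ± 0.14) and cDC1 (-0.07 ± 0.11) had log2 differences of either sign, none with an unadjusted p under 0.05. Over all cells App was 129.3 ± 27.6 CPM in WT against 112.3 ± 24.0 in App NL-G-F libraries (log2 difference -0.09 ± 0.29).

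The 5 App pairs with an unadjusted p under 0.05 were all lower in App NL-G-F libraries, and 4 of them were in cell types with little App. In NK cells the WT libraries had 15.5, 13.1, 14.7 and 19.2 CPM listed alike, and the App NL-G-F libraries had 4.74, 6.32, 10.5 and 8.14. The groups did not overlap, and the log2 difference was -1.05 ± 0.26 (edgeR's quasi-likelihood test, adjusted p = 0.171). CD4 T cells had 14.3, 8.34, 13.5 and 18.6 CPM in WT and 7.11, 6.43, 4.72 and 4.11 CPM in App NL-G-F libraries (log2 -1.23 ± 0.39, adjusted p = 0.523), again with no overlap. The differences in pDC (-0.90 ± 0.30), B cells (-0.79 ± 0.34) and cDC2 (-0.40 ± 0.16) also failed the adjustment. In cDC2, the only type of the 5 with an App level above that of empty droplets, the mean was 216.8 ± 16.3 CPM in WT against 169.0 ± 34.9 in App NL-G-F libraries. Gamma-delta T cells, where App was filtered out, had no overlap either, with means of 14.1 and 4.89 CPM.

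Free App RNA was also higher in WT than in App NL-G-F libraries in 3 of 4 treatments. In empty droplets it was 111.9, 90.6, 76.9 and 166.7 CPM in the WT libraries (control, acute colitis, chronic colitis, food allergy) and 58.3, 102.8, 61.7 and 62.9 in the App NL-G-F libraries, from 258 UMIs in all. Its part in the differences was not tested. Markers of some myeloid cells moved with them, and others did not. In CD4 T cells the 6 monocyte markers summed to 544.8 to 955.0 CPM in WT against 345.8 to 563.1 CPM in App NL-G-F libraries, with 1 of the 6 at 0 throughout, and 0 of them had a higher mean in App NL-G-F libraries, as did 0 of 10 macrophage and 0 of 5 cDC2 markers. Of 11 neutrophil markers, however, 9 had a higher mean in App NL-G-F CD4 T cells (summed 166.5 to 1059 CPM against 17.47 to 842.5 CPM in WT). In NK cells the monocyte markers summed to 848.6 to 1128 against 699.8 to 852.3 CPM, with 0 of 6 higher. There 0 of 11 neutrophil, 0 of 5 cDC2 and 5 of 10 macrophage markers were higher. The part of these markers was not tested. Immediate-early genes moved with the App differences as well. Their summed level in NK cells was 3118 to 4926 CPM in WT against 1673 to 2221 CPM in App NL-G-F libraries, and in CD4 T cells 3157 to 5391 against 2006 to 3547 CPM. Leaving out cells with at least 1% of their UMIs in neutrophil markers brought the NK difference to -0.88 with an adjusted p of 0.508 and made the groups overlap (WT chronic colitis 6.45, App NL-G-F chronic colitis 10.5 CPM), and taking NK cells from clusters instead of the gate gave 0.17. With no low-count filter the NK difference passed (-1.04, adjusted p = 0.0128).

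Of the enzymes, Psen2 in monocytes came nearest to a call. The WT libraries had 92.71, 53.77, 31.79 and 48.94 CPM (control, acute colitis, chronic colitis, food allergy) and the App NL-G-F libraries had 43.43, 28.36, 26.08 and 31.91. WT was higher within each treatment, but the groups overlapped, and the log2 difference was -0.76 ± 0.17 with an adjusted p of 0.303 (edgeR's quasi-likelihood test). Without the chronic colitis library of either genotype it passed, with adjusted p = 0.0260 (App NL-G-F left out) and 0.0255 (WT left out). The chronic colitis library that stays is then fitted by its own treatment term, so these fits are not separate checks. Without either control library the log2 difference was -0.58 to -0.59 with an adjusted p of 0.944, with monocytes from clusters -0.33 with an adjusted p of 1.0, and in the high immediate-early groups -0.61 with an adjusted p of 1.0. High immediate-early hashtag groups held 96.5% to 99.2% of the WT and 55.9% to 71.8% of the App NL-G-F monocytes with 1 hashtag, and pooled Psen2 was 52.4 CPM in their monocytes and 19.3 CPM in those of the low groups. Their part in the difference was not tested.

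Aplp2 in gamma-delta T cells (78.9 against 61.1 CPM, log2 -0.35 ± 0.16, adjusted p = 0.688) and Aph1a in NK cells (log2 0.24 ± 0.10, adjusted p = 0.482) were the other pairs with an unadjusted p under 0.05. Over the cell types tested, the median log2 difference was -0.20 for App, -0.19 for Aplp2, -0.12 for Psen2, -0.02 for Ncstn, 0.07 for Aph1a, 0.06 for Psenen, 0.08 for Adam10 and 0.00 for Adam17, where the median of all genes lay within 0.01 of 0 in every type. Aplp2 was below 0 in 14 of 15 types.

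**Figure D3:**
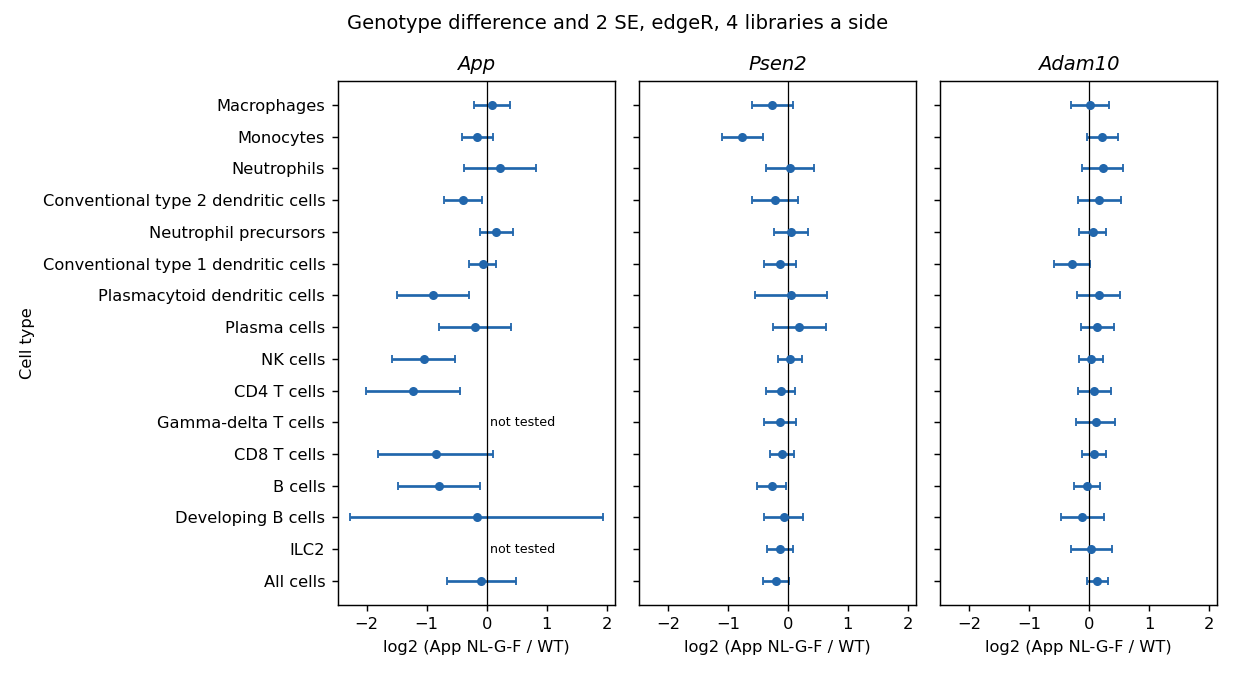
Log2 difference of App NL-G-F against WT libraries (x axis) for App, Psen2 and Adam10 in each cell type tested and in all cells, with bars of 2 SE on either side. App in macrophages sits at 0.09, App in NK and CD4 T cells at -1.05 and -1.23, and none of the points passed the adjusted test.

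The second comparison asked whether colitis or food allergy changed these genes, with the 2 treated libraries (1 WT, 1 App NL-G-F) against the same 2 control libraries in each case, so the 3 contrasts share their controls. Acute and chronic colitis gave 0 member calls by edgeR, with 2 higher and 5 lower pairs and 2 higher and 9 lower pairs at an unadjusted p under 0.05, and the DESeq2 Wald test gave 0. Over all genes 0.182% and 0.172% of pairs were called, and 6.84% and 7.17% had an unadjusted p under 0.05. Food allergy gave 1 call of 121, with 2 higher and 7 lower pairs at an unadjusted p under 0.05 (5.61% over all genes), where over all genes 0.187% were called in either direction and 0.0929% as higher.

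That call was App in pDC, the interferon-producing dendritic cells. WT mice had 24.3 CPM (control), 20.96 (acute colitis), 20.1 (chronic colitis), then 92.9 (food allergy), and App NL-G-F mice had 8.65, 23.7, 14.2 and 36.1, listed alike. Food allergy was the highest treatment in both genotypes, and App rose by 2.08 ± 0.40 on the log2 scale (edgeR's quasi-likelihood test, adjusted p = 0.0331). pDC were found by the gate and formed no cluster of their own. In pDC 0.947% of all genes were called in this contrast, more than the 0.187% over all types.

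The counts behind this were small. The food allergy libraries had 45 App UMIs in 51 WT pDC and 33 in 140 App NL-G-F pDC, and 17 of the 45 came from 1 cell and 25 from 3 cells. In these pDC immediate-early RNA summed to 1752, 3471, 2951 and 4997 CPM in the WT libraries (control, acute colitis, chronic colitis, food allergy). It was 1566, 931.6, 2350 and 2082 CPM in the App NL-G-F libraries, listed alike. High immediate-early hashtag groups held 21.1%, 66.7%, 87.8% and 95.2% of the WT pDC with 1 hashtag. They held 33.0%, 5.0%, 58.1% and 41.0% of the App NL-G-F ones. Neutrophil RNA moved with the App level. The 11 neutrophil markers summed to 6.39, 9679, 5602 and 44050 CPM in the WT pDC (control, acute colitis, chronic colitis, food allergy) and to 95.1, 10100, 12750 and 34890 CPM in the App NL-G-F pDC, and App is high in neutrophils. Without the cells with at least 1% of their UMIs in these markers, App in pDC was 56.9 CPM in WT and 16.9 CPM in App NL-G-F food allergy, and the log2 difference was 1.12 ± 0.48 with an adjusted p of 1.0, so the call was lost. Cells with 1 hashtag only gave 1.22 and an adjusted p of 0.999, and leaving out the WT food allergy library gave 1.55 and 0.893. Without the WT or the App NL-G-F control library the adjusted p was 0.377 and 0.0935, by the DESeq2 Wald test 0.115, and adjusted over all cell types together 0.14. Mmp9 and Adam8, both strongly expressed in neutrophils, rose in the same contrast in pDC, by 9.27 and 5.70 on the log2 scale. Nr4a1, an immediate-early gene, rose there by 2.57 ± 0.46. The part of neutrophil RNA and of immediate-early RNA in the App difference was not tested.

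**Figure D4:**
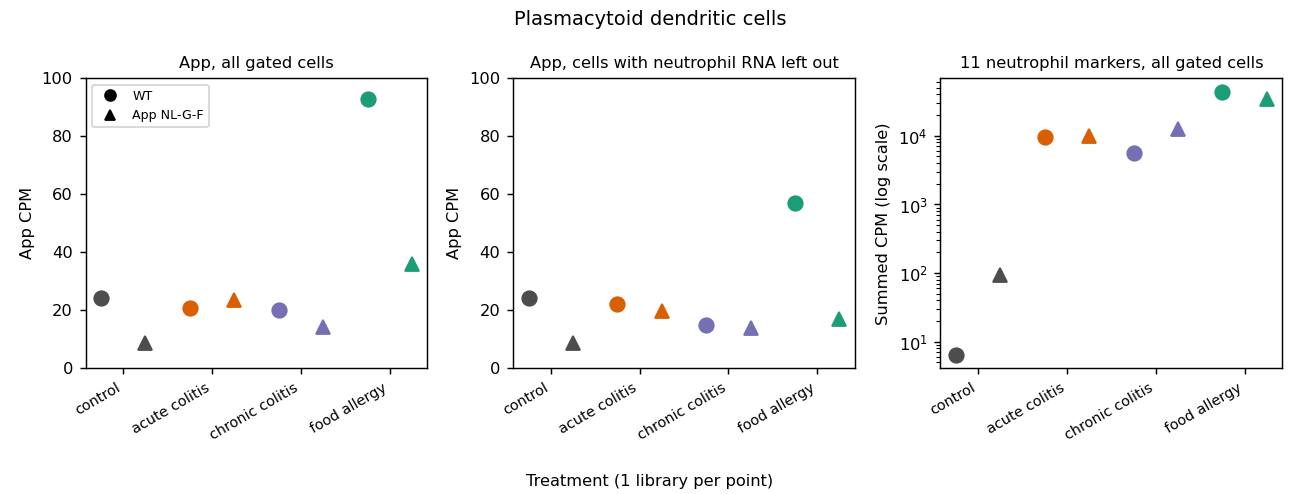
App in gated plasmacytoid dendritic cells (CPM, 1 point per library, circles WT and triangles App NL-G-F) by treatment, with all gated cells and without cells that hold neutrophil RNA, and the summed CPM of 11 neutrophil markers on a log scale. Food allergy is highest in App (92.9 and 36.1 CPM) and in neutrophil markers (44050 and 34890 CPM), and the App values are 56.9 and 16.9 CPM without those cells.

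Psen2 was lower after treatment than in control libraries in several cell types, at the edge of the threshold. In gamma-delta T cells, where it was highest, the WT libraries had 271.7 (control), 165.7 (acute colitis), 145.9 (chronic colitis), then 120.3 (food allergy) CPM and the App NL-G-F libraries had 195.1, 131.6, 141.3 and 141.0. Each treated library was below both controls. The log2 differences were -0.81 ± 0.18 for food allergy (adjusted p = 0.0536), -0.73 ± 0.18 for chronic colitis (0.0842) and -0.62 ± 0.18 for acute colitis (0.208), by edgeR's quasi-likelihood test.

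Macrophages had 117.8, 42.7, 51.4 and 63.3 CPM of Psen2 in the WT and 69.7, 38.8, 61.8 and 55.3 CPM in the App NL-G-F libraries, listed alike. The WT control library stood above all others. The log2 difference for acute colitis was -1.15 ± 0.22 (edgeR's quasi-likelihood test, adjusted p = 0.0538). In monocytes, whose values are given above, chronic colitis had the largest difference, -1.24 ± 0.24 with an adjusted p of 0.0942, against -0.76 for acute colitis and -0.71 for food allergy. In cDC1, WT libraries had 61.8, 44.0, 36.7 and 53.7 CPM and App NL-G-F libraries 56.6, 34.8, 40.6 and 40.7, and the log2 difference was -0.55 ± 0.18 for acute and -0.55 ± 0.17 for chronic colitis. Neutrophil precursors went the other way in acute colitis (0.72 ± 0.20, adjusted p = 0.722).

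These results passed under some other settings and moved far from the threshold under others. For macrophages in acute colitis the adjusted p was 0.0215 in cells with 1 hashtag, 0.0231 without cells with neutrophil RNA and 0.0146 in the high immediate-early hashtag groups, and for gamma-delta T cells in food allergy it was 0.0156, 0.0458 and 0.0144 (edgeR's quasi-likelihood test in each). By the DESeq2 Wald test they were 0.346 and 0.849. Without the WT control library the macrophage difference was -0.82 (0.667) and the gamma-delta T cell difference -0.65 (0.238), and without WT food allergy the latter was -0.59 (0.588). The monocyte difference in chronic colitis passed in the high groups (0.00327) and not in cells with 1 hashtag (0.156), without WT control (-0.93, 0.961) or without WT chronic colitis (-0.87, 1.0). Immediate-early RNA in monocytes summed to 12920, 8734, 3294 and 9444 CPM in the WT and to 5648, 3218, 4670 and 5046 CPM in the App NL-G-F libraries, and in WT mice it was lowest in chronic colitis, as Psen2 was. In macrophages it was 14750 and 11020 CPM in the controls and 16500 and 10330 CPM in acute colitis. In gamma-delta T cells it was 6515 and 5448 CPM in the controls and 2847 to 7112 CPM in the treated libraries. Neutrophil markers in macrophages were at 41.1 and 153.6 CPM in the controls and 541.5 and 17460 CPM in acute colitis. Their part was not tested beyond these settings.

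**Figure D5:**
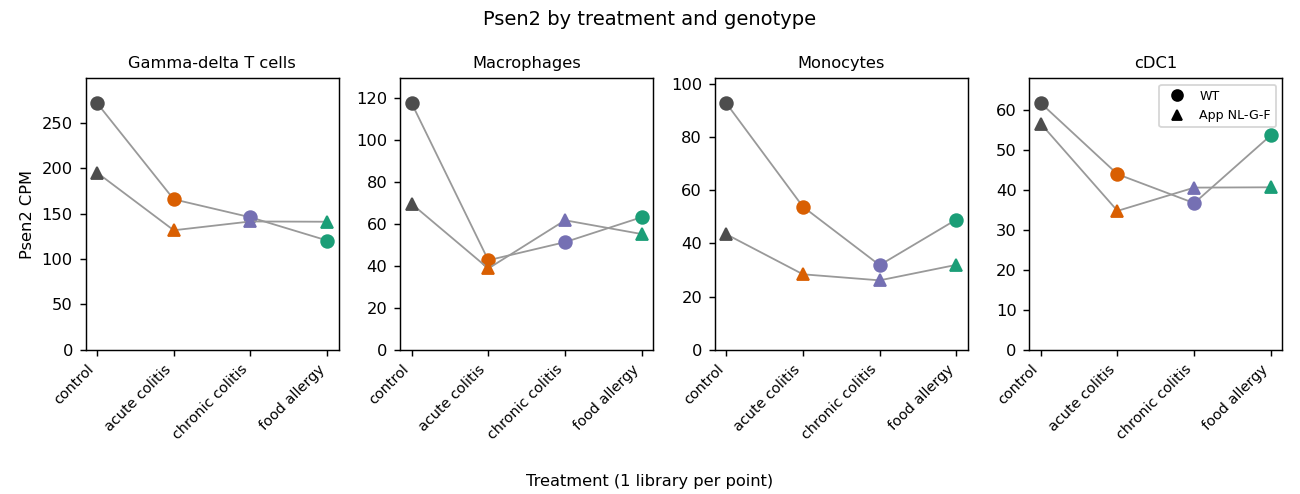
Psen2 in CPM (y axis) by treatment (x axis) in gamma-delta T cells, macrophages, monocytes and cDC1, 1 point per library (circles WT, triangles App NL-G-F, colored by treatment), with a line joining the libraries of a genotype. In gamma-delta T cells the controls lie at 271.7 and 195.1 CPM and the 6 treated libraries between 120.3 and 165.7.

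Over all 9 members, Psen2 included, both treated libraries were below both controls in 33 (acute colitis), 49 (chronic colitis), then 39 (food allergy) of 133 pairs, where over all genes the shares were 20.3%, 20.9% and 20.6%. The reverse held in 18, 14 and 9 pairs, against 12.5%, 15.2% and 12.9%. Ncstn, the nicastrin gene, was lower without overlap in 6, 10 and 10 of 15 types (acute colitis, chronic colitis, food allergy), Psen2 in 7, 9 and 4, and Aph1a in 6, 8 and 5. The other members are listed in the same order. Aplp2 was lower in 3, 6 and 4 types and higher in 1, 0 and 0. Adam10 was lower in 5, 5 and 6 and higher in 2, 3 and 0. Psenen was lower in 4, 5 and 3 and higher in 2, 0 and 2. Adam17 was lower in 0, 3 and 4 and higher in 3, 5 and 2. App was lower in 2, 3 and 2 and higher in 2, 2 and 1. Bace1 was lower in 0, 0 and 1 and higher in 5, 3 and 1. The Bace1 counts rest on few UMIs, and the low-count filter kept Bace1 in 3 types only. In B cells, for example, it had 0 and 2 UMIs in the controls and 9 and 4 in acute colitis. The 3 contrasts share their control libraries, so these counts are not independent of each other.

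Adam10 in gamma-delta T cells had 86.8, 64.8, 80.4 and 63.2 CPM in WT and 113.2, 64.5, 75.7 and 56.0 CPM in App NL-G-F libraries. Food allergy was below control in both genotypes (log2 -0.74 ± 0.21, adjusted p = 0.147 by edgeR's quasi-likelihood test). Without the WT control library the adjusted p was 0.0277. Adam17 had positive median log2 differences in the 3 treatments (0.10, 0.15 and 0.05 over 15 types) and no call.

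App in neutrophils was 413.6 CPM in the WT control library and 138.5 to 267.4 CPM in the others. In the high immediate-early groups alone, App in neutrophils fell by 1.5 on the log2 scale in acute colitis (adjusted p = 0.00523) and by 1.12 in chronic colitis (adjusted p = 0.0119, edgeR's quasi-likelihood test). Ncstn fell there by 1.17 and 0.97 (adjusted p = 0.0385 and 0.0172), and Aph1a by 0.80 in chronic colitis (adjusted p = 0.0396). With all cells none of these passed. The App NL-G-F acute colitis library had 5.82% of its neutrophils with 1 hashtag in the high groups, so that value rests on few of its cells.

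Genes around the pathway were listed and tested in the same fits. Over all genes 7.23% of pairs had an unadjusted p under 0.05 for genotype. The shares were 6.84% for acute colitis, 7.17% for chronic colitis and 5.61% for food allergy. Of 10 other precursor family and secretase genes, 8 were tested in 85 pairs and 0 were called for genotype (8 pairs at an unadjusted p under 0.05, median log2 -0.04). Adam8, a relative of the alpha-secretases, was highest in neutrophils (290.9 CPM) and Adam19 in CD8 T cells (138.6 CPM). Of 13 genes for maturation and inhibition of Adam10 and Adam17, 0 of 106 pairs were called for genotype within cell types (7 at an unadjusted p under 0.05). Over all cells, where a shift in the mix of cell types and a change within them cannot be told apart, Tspan33, a tetraspanin that helps Adam10 to the surface, was 13.5 CPM in WT and 31.8 CPM in App NL-G-F libraries and rose by 1.34 ± 0.15 on the log2 scale (adjusted p = 0.0389, edgeR's quasi-likelihood test), and 0.668% of genes were called in that fit.

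Furin, the protease that matures Adam10, Adam17 and Bace1, fell in gamma-delta T cells in acute colitis (log2 -1.54 ± 0.26, adjusted p = 0.0249), chronic colitis (-1.37 ± 0.24, 0.0184) and food allergy (-1.19 ± 0.23, 0.0255), each against the same controls by edgeR's quasi-likelihood test. In gamma-delta T cells 0.589%, 0.953% and 0.953% of genes were called in these contrasts. Psen2 and Furin were thus lower in the same cell type, Psen2 short of the threshold. Immediate-early genes moved there too, with Jun, Junb, Egr1 and Nr4a1 lower in chronic colitis.

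Of 23 adaptors and trafficking genes of App, 21 were tested in 271 pairs with 0 calls for genotype (6 at an unadjusted p under 0.05) and 0 for treatment (19, 13 and 7). Of 11 proteases that degrade amyloid-beta, 0 of 80 pairs were called for genotype. At an unadjusted p under 0.05 there were 18 pairs, a larger share than the 7.23% over all genes. Mmp9 was the one called for treatment, in macrophages in acute colitis (log2 2.63 ± 0.46, adjusted p = 0.0361 by edgeR, where 0.463% of genes were called) and in pDC. Mmp9 was highest in neutrophils (1160 CPM), and the neutrophil markers in those macrophages, given above, were higher in acute colitis too. Of 13 neighbors of App on chromosome 16, 9 were tested in 128 pairs, with 0 calls (10 at an unadjusted p under 0.05 for genotype).

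Of 23 leukocyte substrates of these enzymes, 21 were tested in 219 pairs and 2 pairs were called for genotype, both of Areg, the growth factor amphiregulin that Adam17 sheds. Areg fell in ILC2, with means of 909.1 CPM in WT and 513.8 CPM in App NL-G-F libraries (log2 -0.84 ± 0.11, adjusted p = 0.00744), and in CD4 T cells, with 147.9 and 54.4 CPM (log2 -1.41 ± 0.17, adjusted p = 0.00923, edgeR's quasi-likelihood test). Over all genes 0.273% and 0.193% were called in these types. Immediate-early genes had 20 of 150 pairs called lower for genotype in 8 of 10 genes, with a median log2 of -0.66. Over all genes 0.104% of pairs were called lower. An example was Nr4a1 in NK cells (149.5 against 35.3 CPM, log2 -2.05 ± 0.17), where 0.488% of genes were called. The part of immediate-early genes in the Areg difference was not tested.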

How the data were processed

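Single-cell RNA and hashtag libraries (10x Genomics 5′ kit) of sorted CD45.2+ brain cells were deposited by the authors as unfiltered UMI counts per gene and barcode on mm10. The labels name Cell Ranger 6.1.2 and the file headers another version. The members and gene lists were chosen with earlier results of these data known.

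Barcodes were called as cells from the deposited counts by an order-of-magnitude rule (3000 expected cells) and a test of barcodes with at least 500 UMIs against the free-RNA profile (barcodes ranked 45000 to 90000, 1000 simulations, false discovery rate 0.01), and kept if they had 200 or more genes and no more than 5% mitochondrial UMIs. Cells were typed by a gate on marker genes (at least 3 detected, score of at least 1). Doublets were not removed. Leiden clusters (resolution 0.5, 27 clusters, scanpy 1.11.5) were an alternative. UMIs were summed per library and type and fitted with edgeR 4.0.16 (TMM, filterByExpr, quasi-likelihood test, treatment and genotype as terms) in R 4.3.3. With 1 library per genotype and treatment, an interaction could not be tested. DESeq2 1.42.0, joint adjustment, no filter, library totals, a stricter gate (margin 0.25), cells with 1 hashtag, hashtag groups of low or high immediate-early RNA and leaving out each library were alternatives, and leaving out cells with neutrophil RNA was added after seeing the data. The fits were tested on simulated data. Levels were compared by exact sign-flip tests on log2(CPM + 1). All members, list genes called for genotype or else the 2 highest of a list, and the 3 genes most like each member were named, with genes called for treatment and rarer types added after their values were seen. Coordinates come from GENCODE vM21 (GRCm38). p-values and the interval of a log2 difference measure the spread between libraries, and intervals of a share of cells counting error only.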

Additional observations from a re-analysis of the deposited data

Results flagged for a closer look

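In 15 of 133 sets of 8 libraries (a member in a cell type), 1 library lay apart from the others by a gap test at the 95% level, and chance alone marks about 1 in 20 sets. The sets are not independent, since they share libraries.

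WT libraries stood high in 10 of these sets and low in 2. WT control was the high library for App in neutrophils (413.6 CPM, others 138.5 to 267.4), Psen2 in macrophages (117.8, others 38.81 to 69.7), Psen2 in monocytes (92.71, others 26.08 to 53.77), Aph1a in macrophages (116.4, others 60.59 to 86.94) and Aplp2 in NK cells (122.5, others 83.83 to 97.66). WT food allergy was high for App in CD8 T cells (22.58, others 3.213 to 11.31) and in pDC (92.91, others 8.645 to 36.06), and low for Ncstn in ILC2 (48.25, others 58.76 to 65.97). WT chronic colitis was high for App in gamma-delta T cells (25.9, others 3.358 to 12.14). WT acute colitis was high for Aplp2 in pDC (58.69, others 18.58 to 29.93) and Adam10 in NK cells (81.18, others 71.71 to 75.18), and low for App in neutrophil precursors (118.7, others 175.1 to 207.0), where it had 21 cells.

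App NL-G-F libraries stood apart in 3 sets. These were App in ILC2 in chronic colitis (12.27, others 0 to 5.643), Psenen in ILC2 in acute colitis (293.4, others 225.3 to 244.0) and App in cDC1 in food allergy, the low one (76.38, others 94.3 to 109.8).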

How the results depend on the processing

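No further pairing was possible because the labels carry no replicate numbers. The matching that the design gives, by treatment, is already in the fit as its treatment term, and levels were paired within a library. The count of 0 member calls for genotype became 2 with no low-count filter and 0 to 1 over fits that each left out 1 library (1 without the App NL-G-F or the WT chronic colitis library). The count of 1 for treatment became 0 by the DESeq2 Wald test, with joint adjustment and in the low immediate-early groups (testable in 3 cell types and all cells), 2 with DESeq2 size factors and without neutrophil RNA (added after seeing the data), 3 with 1 hashtag and with clusters, 4 with the stricter gate, 7 with no filter, 9 in the high groups and 0 to 4 over fits that left out 1 library. All 9 members kept their top type, except that 8 did with clusters, which had no pDC. The cause of these moves was not tested.

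Over fits that left out 1 library, the App genotype difference (log2) spanned -0.41 to 0.18 in all cells, -0.13 to 0.04 in cDC1, -1.82 to 1.63 in developing B cells, -0.02 to 0.22 in macrophages, -0.12 to 0.52 in neutrophils and -0.52 to 0.12 in plasma cells. It changed sign in all cells (0.90 in the low groups, 0.18 without either food allergy library, 0.01 without App NL-G-F chronic colitis), in cDC1 (0.04 without either food allergy library), in plasma cells (0.12 likewise), in developing B cells (0.15 and 0.16 without the App NL-G-F or WT acute colitis library, 1.63 and 1.58 without the chronic colitis one), in macrophages (-0.02 without either chronic colitis library), in NK cells (0.17 with clusters), in neutrophil precursors (-0.19 in the high groups) and in neutrophils (-0.23 in the high groups, -0.12 without either acute colitis library). None of these values passed the test. When 1 library of a treatment is left out, the other is fitted by its own treatment term. For genotype, leaving out either library of a treatment is therefore not a separate check. Depth limits App in lymphocytes, with 31 to 136 UMIs per type over 8 libraries, plasma cells aside.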

Other observations

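Fibroblasts that passed the sort (243 cells) had the highest pooled level of Aplp2 and Bace1. They had 392 CPM of Aplp2, against 152.0 ± 28.7 CPM in ILC2, and 53.8 CPM of Bace1, against 11.8 ± 1.79 CPM in neutrophil precursors. Basophils had 25.7 CPM of Bace1 as well, with 127 CPM of Ncstn. Mast cells had 239 CPM of Psen2, the highest of the types with at least 50 cells, and 1.001 CPM of Bace1. The 98 microglia, of which 7 passed the stricter gate, had 118 CPM of Adam10 and 87.3 CPM of Adam17. These values lay above the 86.8 and 62.7 CPM of the highest of the 15 tested types. These are pooled counts of few cells with no test.

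Among genes around the pathway, Itm2b, whose product binds the amyloid precursor protein, was highest in macrophages (3331 CPM) and its relative Itm2c in ILC2 (712.8 CPM). Timp2, an inhibitor of metalloproteases, was highest in macrophages (246.1 CPM), Ctsb, a lysosomal protease, in pDC (2112 CPM) and Sppl2a, an intramembrane protease of late endosomes, in monocytes (91.4 CPM). Mertk, a receptor for dying cells that Adam17 sheds, fell in monocytes in chronic colitis (log2 -3.97 ± 0.51, adjusted p = 0.0301 by edgeR's quasi-likelihood test). The 10 macrophage markers in these monocytes summed to 424.0 and 189.0 CPM in the controls and to 55.95 and 70.78 CPM in chronic colitis, and their part was not tested.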
